A study of Mus musculus with 9 samples.

Results

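Copper oxide nanoparticles (CuO NPs) given together with TTM for 24 h were compared with control in MH-S, an SV40-transformed line of alveolar macrophages from mouse. The question was what state of the transcriptome is left when the particles and TTM are both present. Cells of the combined group had 20 µg/ml CuO NPs with 10 µM TTM, the controls are labelled only as control, and a further group had 20 µg/ml CuO NPs alone. Each group has 3 libraries of polyadenylated RNA, so 6 of the 9 libraries of the study enter the comparison. The abbreviation TTM is not spelled out in the labels, and among copper chelators it is usually tetrathiomolybdate, a molybdenum and sulfur compound. No group had TTM without particles, so effects of TTM itself and of TTM on the particles cannot be told apart. The genes described are those with at least 1 TPM (a transcript level scaled for gene length and for the library's total) in at least 3 of the 6 libraries. They are 12562 of 56980 identifiers in the table, of which 28033 had a value above 0 in some library. The filter was passed through the combined group's libraries alone by 159 of them and through the control libraries alone by 145.

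Copper is an essential cofactor of cytochrome c oxidase and of superoxide dismutase, and in excess it binds thiols, displaces other metals from proteins and yields reactive oxygen species. Cells answer metal excess with metallothioneins, which bind zinc and copper and are controlled by the metal-sensing factor MTF1. Damaged proteins release heat shock factor 1, electrophiles and oxidants release NRF2, and translational stress sensed through eIF2 alpha raises ATF4 and its partner CHOP. In cuproptosis, copper binds lipoylated enzymes of the tricarboxylic acid cycle and destabilises iron-sulfur proteins. Alveolar macrophages clear particles through scavenger receptors such as MARCO and signal injury with cytokines and chemokines.

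The 3 libraries with both agents formed a group apart from the controls and from the libraries with particles alone. Pearson correlations of log2(TPM + 1) across genes, which are not independent replicates, were 0.981 to 0.987 within the 2 groups compared and 0.941 to 0.953 between them. The first principal component held 41.8% of the variance, and the libraries with both agents lay at 32.4 to 42.0 on it, those with particles alone at -8.49 to -6.97 and the controls at -29.9 to -28.9. The second held 29.4%. On it the libraries with both agents lay at 10.1 to 10.8, the controls at 21.0 to 22.7 and those with particles alone at -35.2 to -30.3. Genes with a value above 0 numbered 19710 to 20863 in a library. TPM values keep no read number, so the depth is unknown and no counting error was given. The labels do not say whether the replicates were separate cultures, so p-values measure the spread between these libraries, which may be technical.

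**Figure D1:**
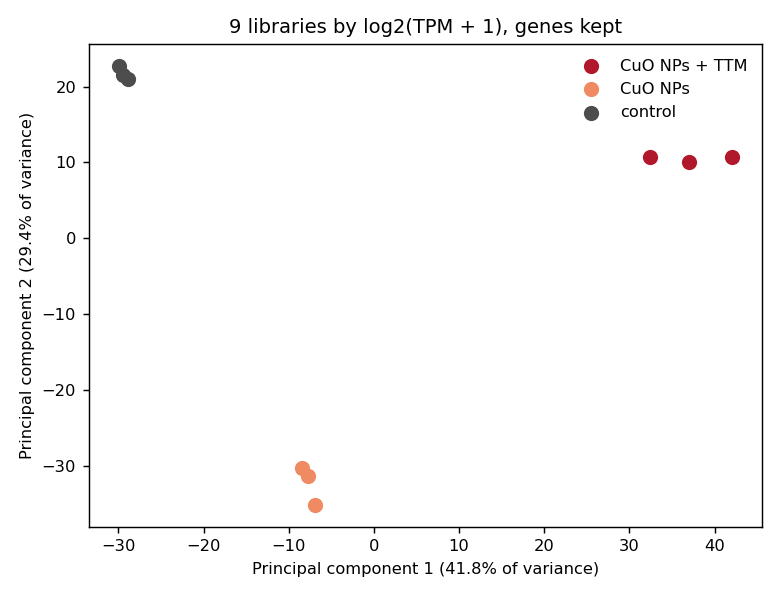
Each point is 1 library on the first 2 principal components of log2(TPM + 1), in arbitrary units, with the share of variance on each axis. CuO NPs + TTM libraries lie at 32.4 to 42.0 on component 1, CuO NPs libraries at -8.49 to -6.97 and controls at -29.9 to -28.9. On component 2 the same groups lie at 10.1 to 10.8, -35.2 to -30.3 and 21.0 to 22.7.

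All groups carried RNA of macrophages. Cd68, a lysosomal glycoprotein of macrophages, had 945, 1011 and 1024 TPM with CuO NPs + TTM and 989, 983 and 1050.1 TPM in controls, and those groups overlapped. Ptprc, which encodes the leukocyte antigen CD45, had 66.2, 60.2 and 62.8 TPM with both agents and 73.7, 68.5 and 67.5 TPM in controls, lower without overlap but not past the test (adjusted p = 0.146). Several markers of primary alveolar macrophages were at or near 0 in the line: Siglecf and Car4 were listed at 0 in all 6 libraries, and Pparg stayed at or below 0.22 TPM. Of 9 epithelial markers 0 were kept, of 9 fibroblast markers 1 (Postn), of 8 endothelial markers 1 (Vwf) and of 11 lymphocyte markers 1 (Cd3e). Of these 4 lists 4, 1, 2 and 4 markers were listed at 0 in all 6 libraries. Summed, the lymphocyte markers reached 1.84 to 2.73 TPM with both agents and 0.73 to 0.90 TPM in controls, and the fibroblast markers 2.35 to 3.97 TPM and 14.0 to 16.0 TPM in the same order. The epithelial markers summed to 0.09 to 0.25 TPM and 0.10 to 0.16 TPM, and the endothelial ones to 11.6 to 14.3 TPM and 8.30 to 12.04 TPM, again with both agents and then in controls. In these bulk samples fewer cells of a type and less RNA per cell cannot be told apart.

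Of the 12562 genes, 7151 (56.9%) passed the test, 3528 (28.1%) higher and 3623 (28.8%) lower with CuO NPs + TTM than in controls (limma on log2(TPM + 1), Benjamini-Hochberg adjusted p below 0.05). The median log2 fold change of all genes was 0.0038. Most changes were modest: the median size among the genes that passed was 0.53 on the log2 scale, and 6172 of them changed by less than 2-fold. At least 2-fold changes were found for 456 genes that rose and 523 that fell, and at least 4-fold changes for 29 and 60. The groups' libraries did not overlap for 8079 genes (64.3%). Fold changes below are on the log2(TPM + 1) scale, which understates those of genes with few TPM, and each is of CuO NPs + TTM over control unless another pair is named.

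**Figure D2:**
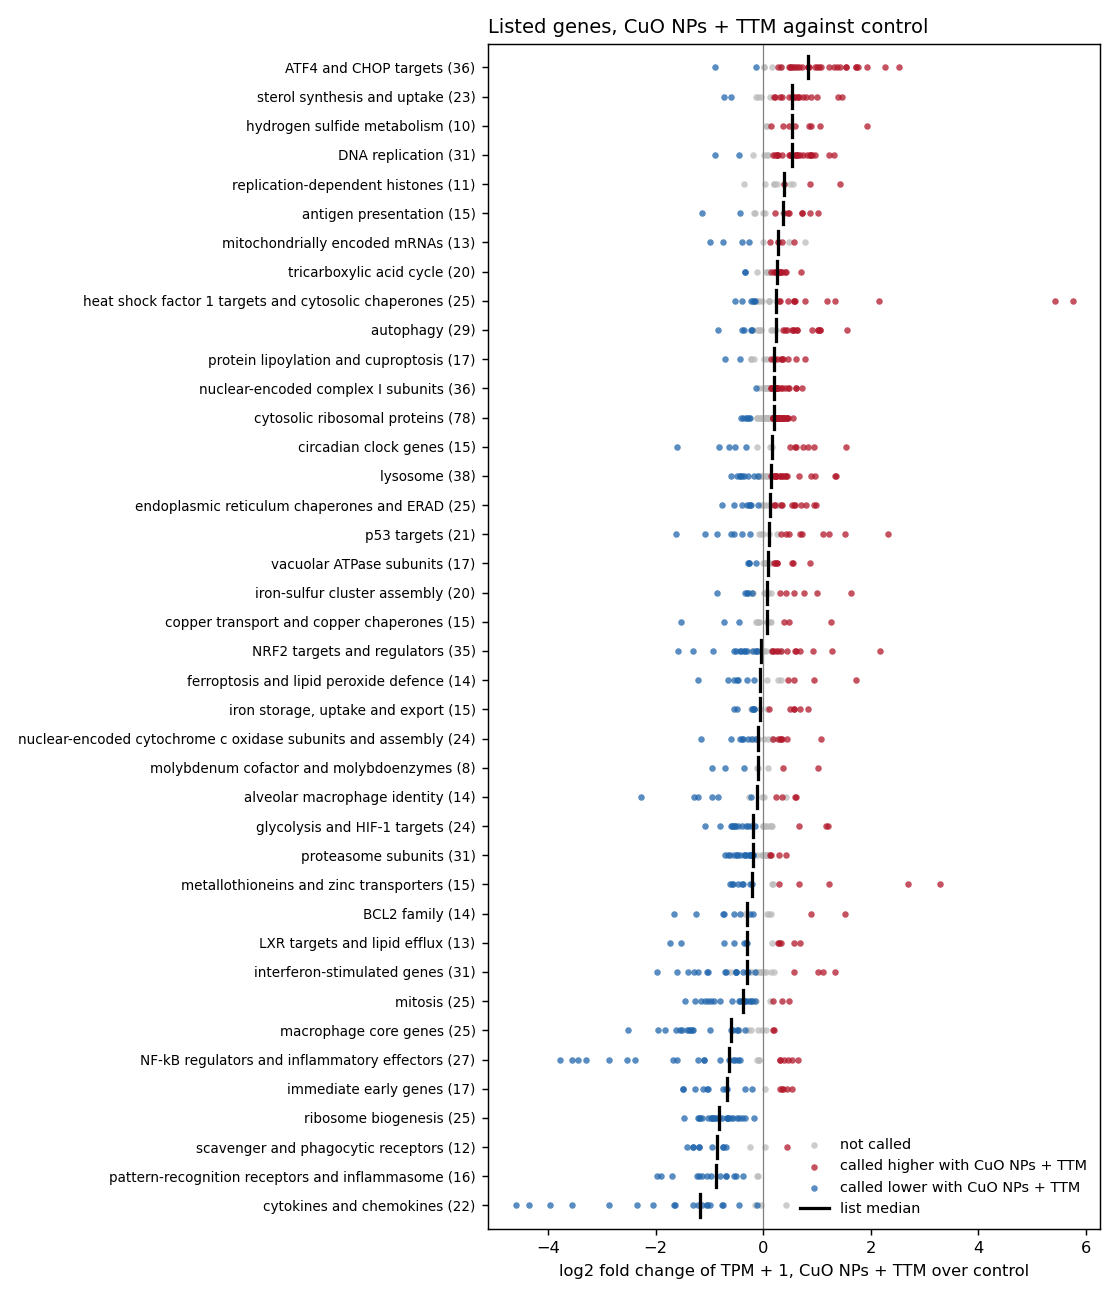
Rows are gene lists with at least 8 genes kept (number in brackets), points are genes, the x axis is the log2 fold change of TPM + 1 of CuO NPs + TTM over control, red and blue mark genes that passed the test and black bars list medians. Lists run from ATF4 and CHOP targets with a median of 0.83 to cytokines and chemokines with a median of -1.18, beside 0.0038 for all genes.

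Metallothionein transcripts stood far above control with both agents present, and above the level with particles alone. Mt2 had 2918, 3199 and 3523 TPM with CuO NPs + TTM, against 315, 334 and 333 TPM in controls. Mt1 had 3831, 4299 and 4636 TPM with both agents, against 627, 671 and 659.6 TPM in controls. The groups did not overlap for either gene, and the log2 fold changes were 3.29 (SE 0.0654) for Mt2 and 2.70 (SE 0.0672) for Mt1. With particles alone Mt2 had 1801, 1858 and 1948 TPM and Mt1 3208, 3131 and 3390.3 TPM, so that CuO NPs + TTM lay higher by 0.78 and 0.39 on the log2 scale (adjusted p = 1.38e-05 and 9.41e-04). Slc30a1, the zinc exporter of the plasma membrane that MTF1 also controls, did not follow this order. Its levels were 7.75, 7.73 and 9.01 TPM with both agents, 12.2, 12.3 and 11.6 TPM with particles alone and 3.0, 2.89 and 2.9 TPM in controls, a log2 fold change of 1.22 over control and of -0.51 over particles alone.

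The promoters of these 3 genes are shown because MTF1 controls such genes, and its activity was not measured here. Matches to the core of the metal response element (TGCACNC or TGCGCNC, either strand) are in capitals. The sequences are RefSeq windows of build GRCm38.p6, from 250 bases before to 50 after the gene start, 5′ to 3′ on the gene's strand: Mt1 at chr8:94178839-94179138 (plus strand), Mt2 at chr8:94172368-94172667 (plus strand) and Slc30a1 at chr1:191906531-191906830 (plus strand).
Mt1: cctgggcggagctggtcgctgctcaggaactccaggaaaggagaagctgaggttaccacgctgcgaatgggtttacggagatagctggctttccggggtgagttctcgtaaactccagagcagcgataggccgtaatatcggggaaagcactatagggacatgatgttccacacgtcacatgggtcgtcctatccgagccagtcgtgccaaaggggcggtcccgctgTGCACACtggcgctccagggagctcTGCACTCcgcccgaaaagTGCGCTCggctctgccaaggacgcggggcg
Mt2: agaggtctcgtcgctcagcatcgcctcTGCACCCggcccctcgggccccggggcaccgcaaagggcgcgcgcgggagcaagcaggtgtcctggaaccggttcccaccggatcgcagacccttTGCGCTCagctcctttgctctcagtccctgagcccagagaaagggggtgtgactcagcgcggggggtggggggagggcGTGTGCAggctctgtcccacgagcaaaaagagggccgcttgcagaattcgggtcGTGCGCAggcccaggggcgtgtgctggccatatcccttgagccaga
Slc30a1: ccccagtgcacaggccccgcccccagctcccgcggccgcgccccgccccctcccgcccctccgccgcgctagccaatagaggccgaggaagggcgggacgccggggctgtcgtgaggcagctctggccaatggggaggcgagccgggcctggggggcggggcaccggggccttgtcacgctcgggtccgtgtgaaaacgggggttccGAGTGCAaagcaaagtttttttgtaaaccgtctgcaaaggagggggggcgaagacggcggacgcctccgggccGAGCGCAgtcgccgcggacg
Mt1 holds 3 matches, Mt2 holds 4 and Slc30a1 holds 2, while 25.7% of 32851 promoters of the same length hold at least 1 and 1.97% hold at least 3. Of other promoters searched, that of Gclm, which did not pass against control, holds 3. That of Mcoln1 holds 2, and those of Hspa1a, Hspa1b and Nqo1 hold 0. A match is a run of letters and not a shown binding site.

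Of 15 metallothionein and zinc transporter genes kept, 5 rose and 8 fell (all genes 28.1% and 28.8%), with a median of -0.20. The others that rose were Slc39a3 with 0.67 and Slc39a7 with 0.30, both zinc transporters, and Slc39a7 lost its call in 4 other settings, among them without combined replicate 3, control replicate 2 or control replicate 3. Mtf1 itself fell to 10.4 ± 1.01 TPM with both agents, against 16.1 ± 0.506 TPM in controls (mean ± SD, n = 3 each), and had 16.5 ± 2.68 TPM with particles alone.

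Most genes of copper handling did not pass the test. Of 15 genes of copper transport and copper chaperones, 3 rose, 3 fell and 9 did not pass (all genes 28.1% higher and 28.8% lower). Slc31a1, the copper importer, had 58.4, 63.4 and 60.2 TPM with both agents and 60.3, 57.6 and 56.3 TPM in controls, and Atp7a, the copper-exporting ATPase, 15, 15.7 and 15.9 TPM and 19.5, 17.3 and 15.3 TPM in the same order. Both overlapped between the groups (log2 fold changes 0.06, adjusted p = 0.34, and -0.14, adjusted p = 0.29). With particles alone they had 46.7 ± 1.51 and 9.94 ± 1.39 TPM, below the combined group by a log2 difference of 0.37 and 0.60 (CuO NPs + TTM over CuO NPs, adjusted p = 3.08e-04 and 0.00132). The largest fall of the list was Sco2, which inserts copper into cytochrome c oxidase, with 10.3, 10.1 and 6.92 TPM with both agents and 27.9, 25.7 and 29.4 TPM in controls. Its partner Sco1 and Slc31a2, a copper transporter of endosomes, also fell, with -0.45 and -0.73. The prion protein gene Prnp, whose product binds copper, rose to 19 ± 0.656 TPM, against 7.41 ± 1.65 TPM in controls and 6.5 ± 0.443 TPM with particles alone. Cox17, which hands copper to the mitochondrial SCO proteins, rose by 0.47, and Ccs, the chaperone of superoxide dismutase 1, by 0.38. Of 5 copper enzyme genes kept, 4 rose (all genes 28.1%), among them the ferroxidase ceruloplasmin (Cp, 1.23), the amidating enzyme Pam (0.66) and Sod1 (0.19). The fourth, Aoc2, an amine oxidase, had 0.26 and lost its call in 8 of the other settings, among them the fit of the 6 libraries alone.

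The leading heat shock transcripts were far above control and below the level with particles alone. Hspa1a, an inducible Hsp70, had 195, 172 and 171 TPM with CuO NPs + TTM, against 2.82, 2.28 and 1.98 TPM in controls, the highest log2 fold change among the named genes (5.75, SE 0.089, adjusted p = 6.57e-10). With particles alone it had 339, 346 and 329 TPM, and the difference of CuO NPs + TTM from that was -0.91 on the log2 scale. Hspa1b, which is nearly identical, had a log2 fold change of 5.42 over control, and the division of reads between the pair is uncertain. The Hsp70 partner Dnajb1 had 83 ± 11.4 TPM with both agents, 150.4 ± 2.63 TPM with particles alone and 17.8 ± 1.49 TPM in controls, and the Hsp110 gene Hsph1 had 267 ± 19.3, 523 ± 28.3 and 106 ± 5.07 TPM in that order. Of 25 genes of the list 12 rose and 6 fell (all genes 28.1% and 28.8%), with a median of 0.24. The 6 became 3 without combined replicate 2, combined replicate 3 or control replicate 1. By comparison, with particles alone 21 were higher and 2 lower than in controls (all genes 11.6% and 31.1%). The median of all genes for particles alone over control was -0.13, and counts for that pair were not rerun under other scalings. Against particles alone, 18 of the 25 were lower and 2 higher with both agents (all genes 18.4% and 35.8%, 54.2% in either direction). All genes together had a median log2 difference of 0.127 between these 2 groups, and 0.0071 after median-of-ratios scaling, so that small differences from particles alone depend on the scaling.

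The Hspa1a promoter is shown with its match to the heat shock element letters GAANNTTC, which read the same on both strands, in capitals, at chr17:34972107-34972406 (minus strand, RefSeq, GRCm38.p6). It holds 1 match, as does that of Hspa1b, beside 7.86% of 32851 promoters.
Hspa1a: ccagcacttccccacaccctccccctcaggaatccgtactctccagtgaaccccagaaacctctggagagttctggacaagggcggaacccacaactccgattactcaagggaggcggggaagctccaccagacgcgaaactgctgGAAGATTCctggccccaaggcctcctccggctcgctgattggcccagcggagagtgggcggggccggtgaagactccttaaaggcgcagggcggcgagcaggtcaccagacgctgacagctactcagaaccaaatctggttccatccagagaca

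NRF2 targets as a list stood near the shares over all genes. Hmox1, which encodes the heme-degrading enzyme heme oxygenase 1, had 2919, 2487 and 2225 TPM with CuO NPs + TTM, against 1084, 996 and 1031 TPM in controls (log2 fold change 1.29, SE 0.0841). Particles alone had given 5257, 5213 and 5024 TPM, above the combined group without overlap. Gclm, the modifier subunit of the glutathione-making ligase, had 126, 113 and 110.4 TPM with both agents and 115, 104 and 98.9 TPM in controls. These groups overlapped and the difference did not pass (0.14, adjusted p = 0.133), whereas particles alone had 309 ± 18 TPM. Nqo1, a quinone reductase of low level in this line, had 1.1 ± 0.185 TPM with both agents, 5.06 ± 1.5 TPM with particles alone and 0.867 ± 0.227 TPM in controls, and did not pass against control (adjusted p = 0.444).

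Some NRF2 targets fell under the control level with both agents. Srxn1, which repairs overoxidised peroxiredoxins, had 90.3, 81.3 and 74.5 TPM with CuO NPs + TTM, 275, 292 and 271 TPM with particles alone and 123, 117 and 117 TPM in controls. Gclc, the catalytic partner of Gclm, and Osgin1, an oxidative stress growth inhibitor, fell with -0.34 and -1.59. Across 35 genes of the list 12 rose and 13 fell with both agents (all genes 28.1% and 28.8%), with a median of -0.04, and 22 were higher and 6 lower with particles alone (all genes 11.6% and 31.1%), with a median of 0.39. The glycine transporter Slc6a9 had 53.7 ± 2.19 TPM with both agents, 46.2 ± 4.59 TPM with particles alone and 11.2 ± 0.135 TPM in controls. The iron storage genes Fth1 and Ftl1, which NRF2 also reaches in other cells, rose to 66009.9 ± 3741 and 14001 ± 420.2 TPM, against 44569 ± 612 and 9394 ± 433 TPM in controls. The call of Fth1 was lost when no filter on low values was used (adjusted p = 0.117).

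**Figure D3:**
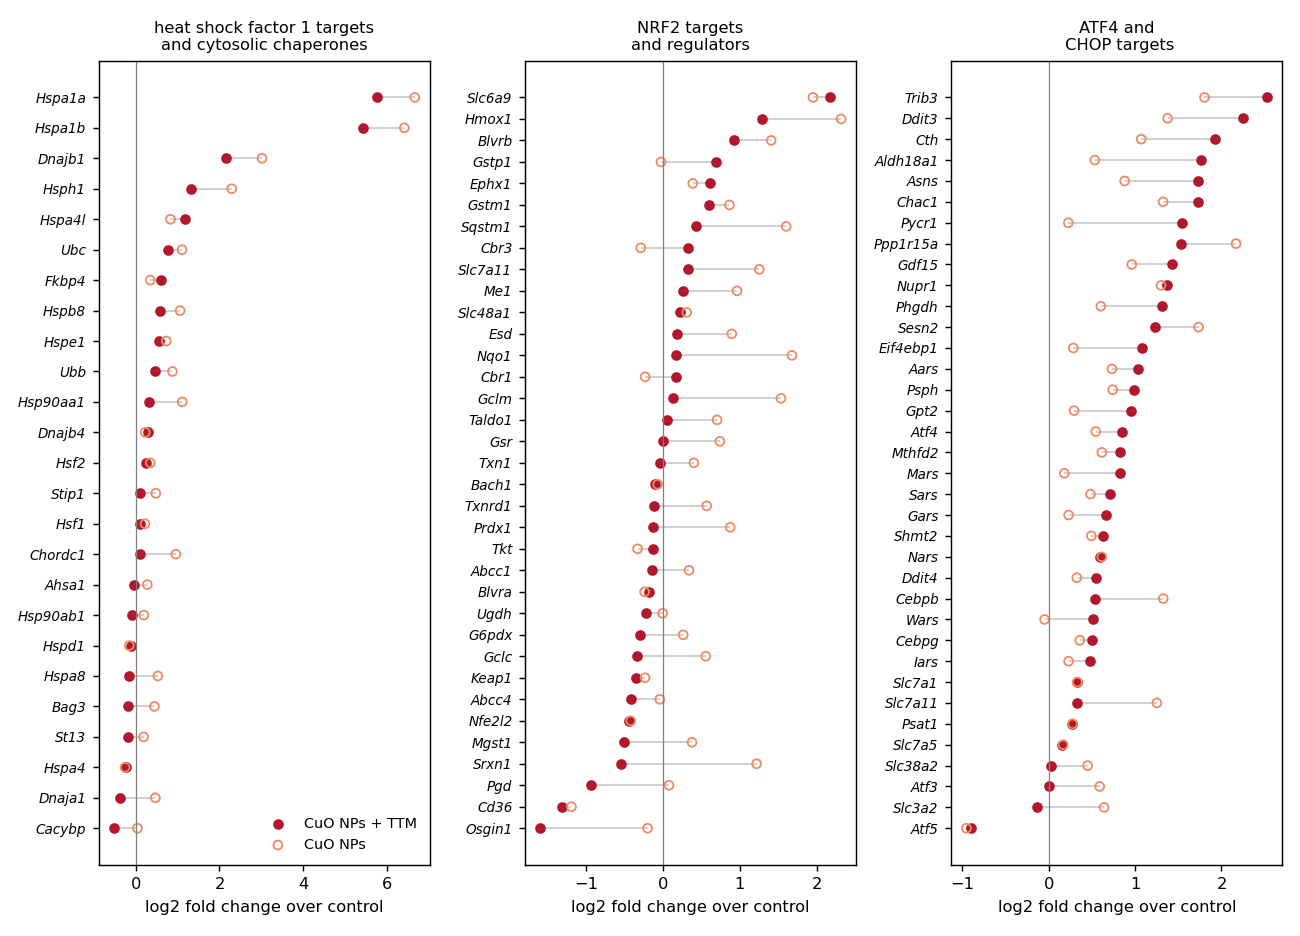
Points are genes of 3 lists, and the x axis is the log2 fold change of TPM + 1 over the same 3 control libraries, for CuO NPs + TTM (filled) and CuO NPs (open). In the ATF4 and CHOP list Trib3 lies at 2.53 with both agents and 1.80 with particles alone, in the NRF2 list Gclm at 0.14 and 1.53.

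Among lists with at least 8 genes kept, the ATF4 and CHOP branch had the highest median. Of 36 genes kept, 29 rose and 2 fell, with a median of 0.83 (all genes 28.1% and 28.8%). With particles alone 31 were higher and 1 lower than in controls (all genes 11.6% and 31.1%), with a median of 0.57, beside -0.13 for all genes. Set against particles alone, 21 were higher and 6 lower with both agents (all genes 35.8% and 18.4%). Trib3, a stress-induced pseudokinase, had 115, 119 and 139.6 TPM with CuO NPs + TTM, 73.3, 80.3 and 70.1 TPM with particles alone and 20.3, 21.2 and 20.4 TPM in controls. Ddit3, which encodes CHOP, had 133, 169 and 186 TPM, 82.2, 85.9 and 93.9 TPM and 32.2, 31.4 and 35.4 TPM in that order. Neither gene overlapped between any pair of groups, and the combined group exceeded particles alone by 0.73 and 0.88 on the log2 scale (adjusted p = 5.72e-05 and 1.36e-04). Enzymes of amino acid supply followed: asparagine synthetase Asns rose by 1.73, the proline enzymes Aldh18a1 and Pycr1 by 1.76 and 1.54, and the cysteine-forming lyase Cth by 1.93. Chac1, which degrades glutathione, rose by 1.73, and Atf4 itself rose to 673 ± 26.2 TPM, against 372 ± 4.97 TPM in controls. The 2 that fell were Atf5 with -0.90 and Slc3a2 with -0.13, and Slc3a2 lost its call in 6 other settings, among them without combined replicate 1, combined replicate 2 or control replicate 1.

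Of 25 genes of endoplasmic reticulum chaperones and ER-associated degradation 11 rose and 8 fell (all genes 28.1% and 28.8%), with a median of 0.12. The 8 became 5 without combined replicate 2 or without control replicate 1. Sdf2l1, an ER chaperone partner, rose to 96.2 ± 8.41 TPM, against 48.1 ± 4.68 TPM in controls, and Herpud1, a component of ER-associated degradation, to 47.2 ± 4.06 TPM, against 23.9 ± 0.18 TPM. Selenos, a selenoprotein of the same pathway, fell to 44.5 ± 2.51 TPM, against 76.5 ± 0.801 TPM in controls.

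Sulfur, molybdenum and lipoate genes were examined because tetrathiomolybdate holds molybdenum and sulfur and because copper binds lipoylated enzymes. Of 10 genes of hydrogen sulfide metabolism 8 rose and 0 fell (all genes 28.1% and 28.8%), with a median of 0.53, and all 10 were higher than with particles alone (all genes 35.8%). The largest rise among them, of Cth with 1.93, also counts in the ATF4 and CHOP list. Sqor, the mitochondrial sulfide quinone oxidoreductase, had 47.3, 51.8 and 49.9 TPM with both agents, 39.4, 38.7 and 42.5 TPM with particles alone and 26.5, 27.4 and 25.2 TPM in controls. Got1, the cytosolic aspartate aminotransferase that also feeds sulfide formation, rose to 232 ± 14.8 TPM, against 111 ± 1.26 TPM in controls. Of 8 molybdenum cofactor and molybdoenzyme genes 2 rose and 3 fell (all genes 28.1% and 28.8%). Gphn, which inserts molybdenum into its cofactor, had 16.4, 16.5 and 17 TPM with both agents, 9.13, 9.61 and 8.83 TPM with particles alone and 7.77, 8.04 and 7.33 TPM in controls. Mocs3, which supplies sulfur for an earlier step, fell to 3.35 ± 0.295 TPM, against 7.44 ± 0.491 TPM in controls, and xanthine dehydrogenase (Xdh), a molybdoenzyme, to 53.8 ± 4.54 TPM, against 88.3 ± 5.82 TPM. The other gene that rose was sulfite oxidase (Suox), with 0.36, whose call was lost without combined replicate 1, combined replicate 3 or control replicate 2 and without the filter.

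Of 17 genes of protein lipoylation and cuproptosis, 10 rose and 2 fell with both agents (all genes 28.1% and 28.8%), with a median of 0.20. With particles alone 0 were higher and 8 lower than in controls (all genes 11.6% and 31.1%). Their median with particles alone was -0.19, beside -0.13 for all genes. Dlat, a lipoylated subunit of pyruvate dehydrogenase, had 60.9, 77.2 and 68.8 TPM with both agents, 41.7, 41.9 and 43.5 TPM with particles alone and 47.7, 48.5 and 38.3 TPM in controls. Lias, the lipoate synthase, rose to 53.8 ± 5.93 TPM, against 41.4 ± 1.92 TPM in controls. Fdx1, the ferredoxin needed for copper toxicity in human cells, had 22.2, 22.7 and 26.1 TPM with both agents and 19.6, 20.6 and 21 TPM in controls. Its call (0.20, adjusted p = 0.036) was lost in 8 of the other settings. Of 20 iron-sulfur cluster genes 6 were higher and 5 lower, near the shares over all genes (all genes 28.1% and 28.8%), and the co-chaperone Hscb had the largest change, with 91.2 ± 9.86 TPM with both agents, 48.1 ± 4.12 TPM with particles alone and 28.7 ± 1.61 TPM in controls.

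Macrophage genes were low with both agents. Of 25 macrophage core genes 17 fell and 2 rose (all genes 28.8% and 28.1%), with a median of -0.59. The 2 that rose, Fcgr2b and Trem2, both lost the call without combined replicate 1, combined replicate 2 or control replicate 1, and Trem2 also under both other scalings. With particles alone 23 of the 25 were lower and 0 higher than in controls (all genes 31.1% and 11.6%). Set against particles alone, 12 were higher and 4 lower with both agents (all genes 35.8% and 18.4%). C1qa, a subunit of complement C1q, had 3.76, 3.43 and 3.44 TPM with CuO NPs + TTM, 1.18, 1.05 and 2.26 TPM with particles alone and 21.8, 30.9 and 23.3 TPM in controls. C1qb and C1qc had 10.6 ± 0.164 and 14 ± 0.507 TPM with both agents, 2.28 ± 0.187 and 4.91 ± 0.311 TPM with particles alone, and 35 ± 4.25 and 52.1 ± 3.49 TPM in controls. For all 3 the combined group lay between the others without overlap. Another order was seen for Csf1r, the M-CSF receptor, with 42, 39.4 and 51.6 TPM with both agents, 97.8, 85.2 and 77 TPM with particles alone and 175, 189.6 and 159 TPM in controls. Spi1, which encodes the lineage factor PU.1, ran the same way, with 97.6 ± 8.06, 131 ± 8.33 and 251 ± 12 TPM. Both were lower with CuO NPs + TTM than with particles alone, by log2 differences of -0.95 and -0.42 (adjusted p = 1.09e-04 and 7.05e-04).

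Lysozyme (Lyz2) fell to 187 ± 7.69 TPM with both agents, against 464 ± 8.99 TPM in controls, while the surface antigen Adgre1 (F4/80) had 109 ± 11 TPM with both agents and 129 ± 15.9 TPM in controls and did not pass (adjusted p = 0.058). Of 14 genes of alveolar macrophage identity kept, 4 rose and 6 fell (all genes 28.1% and 28.8%). Marco, a scavenger receptor for particles and bacteria, had 399, 407 and 409.9 TPM with both agents, 206, 177 and 202 TPM with particles alone and 764, 784 and 819.7 TPM in controls. Chil3, a chitinase-like secreted protein, had 74.4 ± 5.68 TPM with both agents, 109.9 ± 1.01 TPM with particles alone and 364 ± 20 TPM in controls. The 4 that rose were the transcription factors Bhlhe40 (0.59) and Bhlhe41 (0.61), the fatty acid binding protein Fabp5 (0.34) and the integrin Itgax (0.24), and the call of Itgax was lost when any of the 6 libraries was left out. Scavenger and phagocytic receptors fell in 9 of 12 cases (all genes 28.8%), among them Msr1, Colec12, Cd36 and the efferocytosis receptor Mertk, with log2 fold changes of -1.20, -1.30, -1.30 and -1.43.

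**Figure D4:**
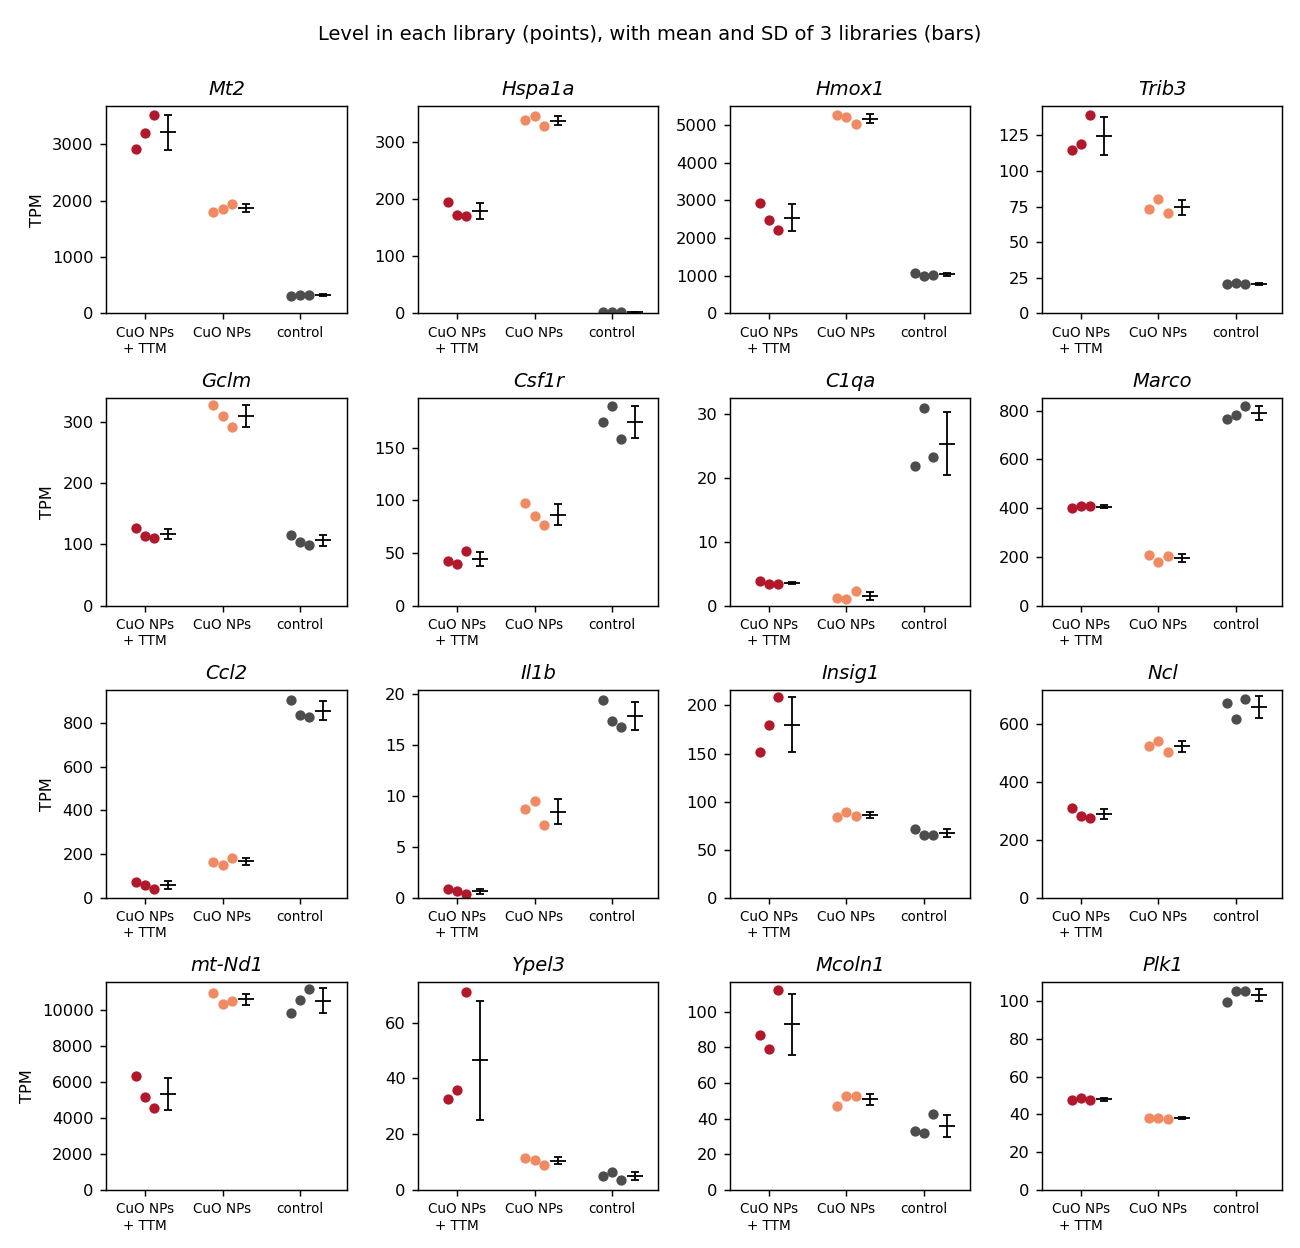
Each panel is 1 gene, with TPM on a linear axis from 0, points for the 3 libraries of CuO NPs + TTM, CuO NPs and control, and the mean with its SD beside them. Mt2 is highest with both agents (2918 to 3523 TPM), Gclm overlaps control, and Marco lies between particles alone and control.

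Cytokine and chemokine transcripts had the lowest median among lists with at least 8 genes kept. Of 22 genes kept, 19 fell and 0 rose, with a median of -1.18 (all genes 28.8% lower and 28.1% higher, median 0.0038). Ccl2 and Ccl7, which draw monocytes, were among the abundant ones in controls. Ccl2 had 73.7, 56.8 and 37.5 TPM with CuO NPs + TTM, 165, 152 and 181 TPM with particles alone and 906, 835 and 827 TPM in controls. Ccl7 had 18, 12.9 and 12.4 TPM, 31.1, 32.8 and 33.5 TPM and 369, 369 and 364 TPM in that order. The granulocyte growth factor Csf3 and interleukin 1 beta (Il1b) fell with log2 fold changes of -4.36 and -3.55. Il1b had 0.83, 0.65 and 0.38 TPM with both agents, 8.67, 9.51 and 7.09 TPM with particles alone and 19.4, 17.4 and 16.8 TPM in controls. Csf3 and Il1b were kept through the control libraries alone, as were Il1a and Cxcl3, so the filter favoured their fall. Without the filter 18 of the 29 listed genes fell and 0 rose, beside 3484 and 3342 of all 28033 genes tested then. Without control replicate 1, 1 gene of the list rose.

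For Ccl2, Ccl7, Csf3 and Il1b every library with both agents lay below every library with particles alone, and those below every control. Tnf fell to 15.3 ± 1.96 TPM with both agents, against 41 ± 1.97 TPM with particles alone and 50.1 ± 1.58 TPM in controls. Cxcl2, a neutrophil chemokine, lay on opposite sides of control in the treated groups, with 116, 91.3 and 68 TPM with both agents, 336, 349.9 and 339 TPM with particles alone and 193, 167 and 176 TPM in controls. The anti-inflammatory Il10 fell too, to 1.33 ± 0.659 TPM, against 15.5 ± 1.36 TPM in controls.

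Receptors that sense microbes fell with the cytokines. Of 16 pattern-recognition and inflammasome genes 14 fell and 0 rose (all genes 28.8% and 28.1%), with a median of -0.89. Among the 14, Tlr8 was kept through the control libraries alone, and without the filter 12 of 18 fell (all genes then 3484 of 28033). Tlr2, the receptor for bacterial lipopeptides, had 17.6, 16.1 and 14.4 TPM with both agents, 40, 40.9 and 39.3 TPM with particles alone and 62.5, 64.6 and 59.8 TPM in controls. The inflammasome sensor Nlrp3 and the Toll-like receptor adaptor Myd88 fell with -1.70 and -1.24. Of 27 NF-kB regulators and inflammatory effectors 18 fell and 6 rose (all genes 28.8% and 28.1%). S100a9, a subunit of the neutrophil and monocyte protein calprotectin, had 3.33, 3.1 and 2.82 TPM with both agents, 19.9, 15.1 and 13.6 TPM with particles alone and 59.1, 52.5 and 54.1 TPM in controls. Gpr84, a fatty acid receptor of activated macrophages, had 0.41 ± 0.26, 6.16 ± 0.22 and 15.4 ± 1.34 TPM in the same order, and the formyl peptide receptor Fpr2 had 3.65 ± 1.64, 23.1 ± 1.18 and 42.8 ± 1.54 TPM. Gpr84 and Fpr1 were kept through the control libraries alone, and without the filter the list's counts were also 18 and 6. Fpr1 and Fpr2 belong to a family of similar genes, so reads may be divided between them. The granulocyte list was also lower than in controls: 4 of its 11 markers were kept and 3 fell (all genes 28.8%). The 3 became 2 without combined replicate 1 or 2, and 1 without control replicate 1. Without the filter 1 of 8 fell, and with the filter at 5 TPM 1 marker was kept and fell. Its sum was 252 to 276 TPM with both agents, 175 to 179 TPM with particles alone and 601 to 619 TPM in controls. That order differs from the order of S100a9, Gpr84 and Fpr2. With both agents and in controls nearly all of the sum was the collagenase Mmp8, while Ly6g, Mpo and Elane were not kept. The part of the granulocyte list in the result was not tested.

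Interferon-stimulated genes fell more often than they rose, and genes of antigen presentation rose more often than they fell. Of 31 interferon-stimulated genes 16 fell and 4 rose (all genes 28.8% and 28.1%), with a median of -0.31. The guanylate-binding protein Gbp2 had 0.69 ± 0.219 TPM with both agents and 5.64 ± 0.42 TPM in controls, and was kept through the control libraries alone. Without the filter 14 of 33 fell (all genes then 3484 of 28033). The 4 that rose were Bst2, which tethers budding viruses, with 292, 319.7 and 311 TPM with both agents and 132, 125 and 109.6 TPM in controls, and Irf7, Ifit2 and Stat2 with 1.11, 1.01 and 0.56. Bst2 is also on the dendritic cell list, of which 3 of 8 markers were kept. The sum of that list was 297 to 325 TPM with both agents and 112 to 135 TPM in controls, nearly all of it Bst2 itself. The part of the dendritic cell list in the result was not tested. Of 15 antigen presentation genes 8 rose and 2 fell (all genes 28.1% and 28.8%), with a median of 0.37, and 1 fell without combined replicate 3, control replicate 1 or control replicate 2. H2-D1 and H2-K1, the class I heavy chains, rose to 374 ± 29.1 and 739.6 ± 58.1 TPM, against 184 ± 9.34 and 406 ± 9.84 TPM in controls, and their similar sequences make the division of reads uncertain. The costimulatory ligand Cd80 fell to 6.09 ± 0.791 TPM, against 14.5 ± 1.13 TPM.

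Ribosome assembly factors fell without exception in the list. All 25 ribosome biogenesis genes kept fell, with a median of -0.82 (all genes 28.8% lower), and 24 passed as lower under either of the other scalings. Ncl, the nucleolar protein nucleolin, had 309.6, 281 and 275 TPM with CuO NPs + TTM, 523, 540.0 and 504 TPM with particles alone and 671, 617 and 687 TPM in controls. Dkc1, the pseudouridine synthase dyskerin, had 37.7 ± 1.52, 60.1 ± 3.02 and 89.4 ± 8.64 TPM in that order, and Rrp12, which exports ribosomal subunits, 18.5 ± 2.46, 43.3 ± 2.34 and 53.2 ± 1.38 TPM. Against particles alone 24 of the 25 were lower (all genes 18.4%), and with particles alone 14 were lower than control (all genes 31.1%). Of the 78 cytosolic ribosomal protein genes 44 rose and 6 fell (all genes 28.1% and 28.8%), with a median of 0.19. The largest of these, Rplp1, rose to 3392 ± 297 TPM, against 2311 ± 161 TPM in controls. The count of ribosomal protein genes that rose was 34 when libraries were centred on the median gene.

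The mitochondrially encoded mRNAs moved in opposite directions. Of 13, 4 fell, 4 rose and 5 did not pass (all genes 28.8% lower and 28.1% higher), and 2 rose without control replicate 3. The complex I subunit mt-Nd1 had 6311, 5159 and 4531 TPM with CuO NPs + TTM, 10937, 10331 and 10485 TPM with particles alone and 9828, 10549.8 and 11172 TPM in controls, a log2 fold change of -0.99 (SE 0.104). Cytochrome b (mt-Cytb) had 7814 ± 637 TPM with both agents, 13686 ± 405 TPM with particles alone and 13138 ± 682 TPM in controls, and mt-Nd2 and mt-Nd4 fell with -0.40 and -0.26. The oxidase subunit mt-Co1 rose to 16418 ± 1301 TPM, against 10991 ± 526 TPM in controls.

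Predicted nuclear pseudogenes repeat some of these mRNAs, and reads may have gone to either. A pseudogene with a mean of at least 100 TPM and at least 80% of its length aligned was found for 6 of the 13 mRNAs, at 99.7% identity or more. The copy of mt-Atp6, Gm10925, had 18388 to 18974 TPM with both agents and 18876 to 21270 TPM in controls, far above mt-Atp6 itself with 1090.0, 1109 and 927 TPM with both agents and 889, 823 and 739.9 TPM in controls. Added together, mt-Atp6 had a log2 ratio of means of -0.08, against 0.35 alone, so that the sign of the ratio turned with the copy included. Alone, mt-Atp6 is among the mRNAs counted above as rising, and the sum with its copy was not tested. For mt-Nd3 the sum gave -0.35 and the gene alone 0.67. No copy was found by these limits for mt-Nd1, mt-Nd2, mt-Cytb, mt-Nd4, mt-Nd5, mt-Nd6 or mt-Atp8. With the copies, the 13 mRNAs took 17.1 to 19.4% of all TPM with both agents, 22.4 to 23.0% with particles alone and 18.3 to 19.5% in controls.

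**Figure D5:**
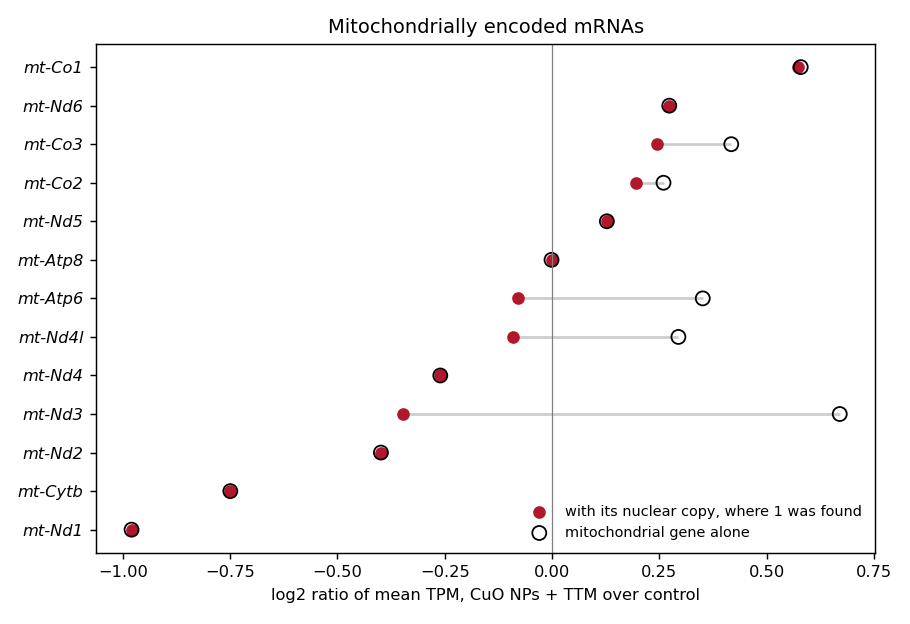
Points are the 13 mitochondrially encoded mRNAs, and the x axis is the log2 ratio of mean TPM of CuO NPs + TTM over control, for the mitochondrial gene alone (open) and with the TPM of its nuclear copy added (filled). mt-Nd1 lies at -0.98 and mt-Co1 at 0.57 with the copy, while mt-Nd3 moves to -0.35 with its copy, against 0.67 alone.

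Nuclear genes of complex I and of the tricarboxylic acid cycle rose more often than they fell. Of 36 complex I subunits 20 rose and 1 fell (Ndufs1) (all genes 28.1% and 28.8%), with a median of 0.20. The 20 became 13 when libraries were centred on the median gene, without the filter or without control replicate 3, and Ndufs1 lost its call in 8 other settings, among them without each of the 6 libraries except combined replicate 2. Ndufa7 had 239 ± 11.3 TPM with both agents, 179 ± 18.1 TPM with particles alone and 144 ± 3.08 TPM in controls. Of 20 genes of the tricarboxylic acid cycle 14 rose and 2 fell (all genes 28.1% and 28.8%), with a median of 0.25. With particles alone 14 were lower than in controls (all genes 31.1%), with a median of -0.20, beside -0.13 for all genes. Sdhb, the iron-sulfur subunit of succinate dehydrogenase, had 172 ± 6.11 TPM with both agents, 112 ± 7.6 TPM with particles alone and 128 ± 7.75 TPM in controls. Of 24 cytochrome c oxidase subunits and assembly factors 7 were higher and 8 lower, near the shares over all genes (all genes 28.1% and 28.8%), and 5 were lower without control replicate 2. Among them the insertion factor Cox18 rose to 43.6 ± 4.16 TPM, against 20.2 ± 2.34 TPM in controls, and the assembly factor Coa7 fell to 38.8 ± 2.83 TPM, against 88.1 ± 0.0473 TPM. The glycolysis and HIF-1 list had 24 genes kept, of which 13 fell and 3 rose (Ndrg1, Vegfa and Aldoc), with a median of -0.19 (all genes 28.8% and 28.1%). With particles alone 19 were lower and 2 higher than in controls (all genes 31.1% and 11.6%), with a median of -0.39, beside -0.13 for all genes.

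Sterol synthesis rose with both agents. Of 23 genes 17 rose and 2 fell (Tmem97 and Hsd17b7), with a median of 0.54 (all genes 28.1% higher and 28.8% lower). With particles alone 1 was higher and 12 lower than in controls (all genes 11.6% and 31.1%). Their median with particles alone was -0.23, beside -0.13 for all genes. Insig1, a sterol-responsive brake on the pathway, had 152, 179.8 and 209 TPM with CuO NPs + TTM, 83.6, 89.1 and 85.1 TPM with particles alone and 71.9, 65 and 65.3 TPM in controls. Mvd and Hmgcs1, enzymes of the mevalonate route, had 66.2 ± 11.3 and 67.2 ± 6.44 TPM with both agents, 24.5 ± 0.483 and 29.7 ± 2.28 TPM with particles alone, and 23.2 ± 1.36 and 33.1 ± 1.57 TPM in controls. Of 13 LXR targets and lipid efflux genes 5 were higher and 7 lower (all genes 28.1% and 28.8%). Nr1h3, which encodes LXR alpha, fell to 4.25 ± 0.622 TPM with both agents, against 9.66 ± 0.553 TPM with particles alone and 16.3 ± 0.725 TPM in controls, and Plin2, which coats lipid droplets, to 147 ± 5.29 TPM, against 225 ± 14.5 TPM with particles alone and 424 ± 6.56 TPM in controls.

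Lysosomal and autophagy genes rose more often than they fell, and proteasome genes fell. Of 38 lysosomal genes 19 rose and 9 fell (all genes 28.1% and 28.8%), with a median of 0.15, and 26 were higher and 1 lower with both agents than with particles alone (all genes 35.8% and 18.4%). Mcoln1, the lysosomal calcium channel, had 87.1, 79.3 and 113 TPM with CuO NPs + TTM, 47.3, 52.5 and 52.8 TPM with particles alone and 32.8, 32 and 42.8 TPM in controls. Naglu, which degrades heparan sulfate, had 22.9 ± 0.872, 6.32 ± 0.348 and 8.5 ± 0.79 TPM in that order. The Mcoln1 promoter is shown because lysosomal genes are often bound by TFEB at the letters TCACGTGA, the same on both strands and in capitals here, at chr8:3500269-3500568 (plus strand, RefSeq, GRCm38.p6). It holds 1 match, beside 0.974% of 32851 promoters.
Mcoln1: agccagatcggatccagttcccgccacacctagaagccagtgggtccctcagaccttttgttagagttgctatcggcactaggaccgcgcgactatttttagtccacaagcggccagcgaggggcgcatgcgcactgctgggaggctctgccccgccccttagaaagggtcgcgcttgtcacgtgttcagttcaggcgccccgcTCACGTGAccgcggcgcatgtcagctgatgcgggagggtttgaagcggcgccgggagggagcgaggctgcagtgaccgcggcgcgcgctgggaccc

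Of 29 autophagy genes 14 rose and 5 fell (all genes 28.1% and 28.8%), with a median of 0.23. The 5 became 2 without combined replicate 2 and 3 without combined replicate 3 or control replicate 2. Ulk1, the kinase that starts autophagy, had 28.6 ± 1.57 TPM with both agents, 14.9 ± 1.42 TPM with particles alone and 9.05 ± 0.215 TPM in controls. Sqstm1, the receptor p62, had 378 ± 14.5, 851 ± 35.2 and 279 ± 6.66 TPM in that order. Of 31 proteasome subunits 17 fell and 4 rose with both agents (all genes 28.8% and 28.1%), with a median of -0.20 (2 rose under either of the other scalings), and 15 were higher and 2 lower with particles alone (all genes 11.6% and 31.1%). Psmc3, an ATPase of the regulatory particle, had 163 ± 10.8 TPM with both agents, 259.8 ± 5.6 TPM with particles alone and 252 ± 13 TPM in controls.

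Genes of DNA replication rose and genes of mitosis fell. Of 31 replication genes 25 rose and 2 fell (Tyms and Ccne1) (all genes 28.1% and 28.8%), with a median of 0.53. With particles alone 26 were higher and 1 lower (all genes 11.6% and 31.1%), with a median of 0.62. Cdc45, which helps form the replicative helicase, had 99.96, 102 and 104 TPM with CuO NPs + TTM, 79.4, 77.9 and 81 TPM with particles alone and 40.3, 40.9 and 40.6 TPM in controls. Of 25 mitosis genes 20 fell and 3 rose (Aurkb, Bub1b and Top2a), beside 28.8% and 28.1% of all genes, with a median of -0.38. With particles alone 22 were lower and 0 higher (all genes 31.1% and 11.6%), with a median of -0.73, beside -0.13 for all genes. Both comparisons use the same control libraries. The mitotic kinase Plk1 had 48 ± 0.736 TPM with both agents, 38.1 ± 0.297 TPM with particles alone and 103 ± 3.18 TPM in controls, and the kinesin Kif20a had 42.5 ± 2.72, 53.7 ± 0.896 and 118 ± 1.72 TPM in the same order.

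Of 21 p53 targets 9 rose and 7 fell (all genes 28.1% and 28.8%). Gadd45a, a growth arrest gene, had 56.5, 66 and 65.2 TPM with both agents, 48, 41.3 and 49.5 TPM with particles alone and 10.8, 11.2 and 13.4 TPM in controls. Bbc3, the death inducer PUMA, rose to 12.9 ± 3.37 TPM, against 5.24 ± 0.804 TPM with particles alone and 3.74 ± 0.406 TPM in controls, while the death receptor Fas fell to 12.7 ± 1.3 TPM, against 18 ± 0.218 TPM with particles alone and 41.4 ± 3.58 TPM in controls. Of 14 BCL2 family genes 8 fell and 2 rose (Bbc3 and Bcl2), beside 28.8% and 28.1% of all genes, and Bid fell to 36.1 ± 2.01 TPM, against 65.9 ± 3.67 TPM with particles alone and 116 ± 1.93 TPM in controls. Immediate early genes fell in 11 of 17 cases and rose in 5 (all genes 28.8% and 28.1%), with Fos at 24.9, 17.4 and 10.1 TPM with both agents and 63.3, 37 and 46.1 TPM in controls.

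A part of the profile lay outside both other groups. With both agents 2633 genes (21%) were higher than in controls and also higher than with particles alone, and 1706 genes (13.6%) were lower than in both. These counts share the combined libraries and are a description. Both depend on scaling, and their order turns with it: 1950 genes were higher and 2640 lower than in both with libraries centred on the median gene, and 2231 higher and 2320 lower after median-of-ratios scaling. Rufy4, a regulator of autophagy and of lysosome position, stood out upwards, with 24.3, 26 and 30.4 TPM with both agents, 4.79, 4.56 and 5.02 TPM with particles alone and 6.06, 4.96 and 5.47 TPM in controls. Tspoap1 had 17.6 ± 3.65, 1.79 ± 0.664 and 4.35 ± 0.933 TPM in that order, and Aph1c, a gamma-secretase subunit, 10.4 ± 0.408, 2.45 ± 0.453 and 2.41 ± 0.736 TPM. Ypel3, a small zinc-binding protein linked to growth arrest, had 32.7, 35.7 and 71 TPM with both agents, 11.5, 10.8 and 8.96 TPM with particles alone and 4.79, 6.51 and 3.52 TPM in controls, with 1 combined library well above the other two.

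Trem1, an amplifier of inflammatory signals, stood out downwards, with 1.16, 0.62 and 0.37 TPM with both agents, 8.22, 7.71 and 7.62 TPM with particles alone and 11.7, 11.7 and 10.5 TPM in controls. The formyl peptide receptor gene Fpr3 had 0.353 ± 0.155 TPM with both agents, 5.86 ± 0.937 TPM with particles alone and 5.53 ± 0.499 TPM in controls, and it was kept through the control libraries alone. Pilrb2, a paired immunoglobulin-like receptor, had 1.7 ± 0.199, 10.6 ± 0.839 and 12.4 ± 1.31 TPM. Exosc6, a subunit of the RNA exosome, was listed at 0 in the 3 libraries with both agents and had 5.17, 1.51 and 4.67 TPM with particles alone and 10.6, 12.7 and 13.8 TPM in controls. It too was kept through the control libraries alone, and a 0 may be a failed estimate.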

How the data were processed

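Polyadenylated RNA of 9 MH-S libraries was sequenced in read pairs from a stranded kit, per the labels' protocols. The authors deposited gene values in TPM. Build GRCm39 and the tools HISAT2, RSEM, fastp and DESeq2 are named, without versions, per the submitters' processing notes. Whether counting used strand is not given in the sources used here, so overlapping and antisense genes are uncertain. Symbols came from GENCODE by Ensembl identifier (52073 of 56980 matched), and coordinates are given for RefSeq promoters of GRCm38.p6 alone. Genes with at least 1 TPM in at least 3 of the 6 libraries were kept. All 9 libraries entered 1 limma 3.58.1 fit (R 4.3.3) of log2(TPM + 1), with 1 mean for each group. It used eBayes with an intensity trend and was two-sided and Benjamini-Hochberg adjusted. The code was also run on simulated data with independent noise for each gene. Those data held no shift of whole libraries, so they cannot show how the calls bear differences of scaling. Members of 47 lists (1049 entries, all matched, 28 by synonym) are described by counts and medians without a set test. Named genes were the 10 highest and 10 lowest fold changes, the 8 most above and 8 most below both other groups, up to 4 per list and fixed metal, stress and macrophage genes, with a level minimum of 5 TPM for the first 2 kinds. The naming of Mtf1, Asns, Pycr1, Atf4, Srxn1, Gclc, Sqstm1, Tnf, Cxcl2, Il10, mt-Nd3 and of members where a count was 5 or fewer came after seeing their values. The members and lists were chosen with earlier results of these data known. The heat shock and TCACGTGA motifs were added after the results were seen. Nuclear copies were aligned with blastn 2.17.0. Python 3.11.15, numpy 2.4.6, pandas 2.3.3 and matplotlib 3.10.9 were used.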

Additional observations from a re-analysis of the deposited data

How the results depend on the processing

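The counts of 3528 genes higher and 3623 lower than in controls stayed within 1.5 times under every alternative run: pseudocounts of 0.1 and 5 TPM, no filter, a filter at 5 TPM, median-of-ratios scaling, centring on the median gene, the 6 libraries alone, no intensity trend, a replicate block and leaving out a library. They ranged from 3004 to 3586 and from 3097 to 3866, and leaving out 1 library gave 3066 to 3342 and 3097 to 3579. The filters changed the number of genes tested, to 28033 without a filter and 9814 at 5 TPM, against 12562 in the main fit. Without a filter 3342 were higher and 3484 lower, so that a smaller share of the genes tested was called. The genes above both other groups numbered 2312 to 2593 and those below both 1418 to 1748 when 1 library was left out. Genes above and below both other groups numbered 1950 and 2640 after centring on the median gene and 2231 and 2320 after median-of-ratios scaling, against 2633 and 1706 as deposited, so that the larger count turns with the scaling, and the cause was not tested. Same-numbered libraries of the 2 groups did not deviate together (correlations -0.0057 to 0.041). With a block for the replicate number, a pairing that the labels do not state, 3377 genes were higher and 3441 lower, and 2457 and 1609 lay above and below both other groups. Of 185 genes that passed and were named by the rule, 177 kept their call and direction in every setting that tested them and 0 changed sign. The 8 that lost a call in some setting were Snora65, Aoc2, Fth1, Cox14, Hist1h2bc, Ltf, Camp and Fdx1. Of 37 further genes that passed and are named outside the rule, 28 kept their call in every setting, 0 changed sign and 9 lost a call in some setting: Fcgr2b, Trem2, Itgax, Ndufs1, Slc39a7, Slc3a2, Suox, mt-Atp6 and mt-Nd4. Adgre1 passed in 3 settings and Ptprc and mt-Nd3 in 1 each. Gclm passed with the block (adjusted p = 0.0272) and Vwf without control replicate 1 (adjusted p = 0.0419). TPM values hold no read number, so what depth limits is unknown. With 3 libraries a group, an exact permutation test of 1 gene cannot go below p = 0.10, and calls rest on a spread shared across genes.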

Other observations

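Of 15 clock genes 7 were higher and 5 lower with CuO NPs + TTM than in controls (all genes 28.1% and 28.8%). Nr1d1, the repressor REV-ERB alpha, had 16.3, 20.6 and 25.9 TPM with both agents, 4.61, 3.81 and 4.91 TPM with particles alone and 6.55, 7.3 and 5.48 TPM in controls, and Per2, a repressor of the clock, 3.15 ± 0.131, 3.47 ± 0.482 and 11.6 ± 1.42 TPM in that order. Among genes of ferroptosis and lipid peroxide defence 4 of 14 rose and 7 fell, beside 28.1% and 28.8% of all genes. Gch1, which makes the radical-trapping cofactor tetrahydrobiopterin, rose to 30.6 ± 0.51 TPM, against 19.8 ± 0.56 TPM with particles alone and 15.4 ± 0.643 TPM in controls, and Ptgs2, which makes prostaglandins, fell to 6.65 ± 0.974 TPM, against 17.6 ± 1.12 TPM with particles alone and 16.6 ± 1.35 TPM in controls. Hist2h2aa1 and Hist2h2aa2, near-identical histone genes among the 10 largest rises, had 15.1 ± 5.61 and 13.3 ± 8.42 TPM with both agents, 16.1 ± 1.36 and 24.7 ± 2.65 TPM with particles alone, and 1.91 ± 1.08 and 1.61 ± 1.43 TPM in controls.

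A pair of small nucleolar RNA genes stood among the largest changes of polyadenylated libraries. Snord22 (126 bases) was listed at 0 in every library with both agents and with particles alone, and had 214, 281 and 92 TPM in controls, through which alone it was kept. Snora65 (130 bases) had 184, 156 and 152 TPM with both agents, was listed at 0 in every library with particles alone, and had 0, 49.3 and 23.1 TPM in controls. How many reads lie behind these values is unknown.

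Changes differed by base composition. Among protein-coding genes, 37.6% of the 2699 with the highest GC content of the longest transcript (bound 54.4%) rose and 25.7% fell, while of the 2699 with the lowest (bound 44.7%) 20.5% rose and 34.5% fell, with medians of 0.11 and -0.08 on the log2 scale. In 4 classes of transcript length the medians lay between -0.03 and 0.04. The part of GC content in the results above was not tested.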
